A study of Rattus norvegicus with 11 samples.

Results

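The genes described are 10 genes of natural killer (NK) cells and cytotoxic T lymphocytes, chosen by gene symbol from the 32623 genes of the deposited table, and all 10 were found once each. They are Prf1, Gzma, Gzmb, Gzmk, Gzmm, Ctsw and Nkg7, whose products sit in cytotoxic granules, and Klrd1, Klrk1 and Ncr1, whose products are receptors on the surface of the cell. RNA came from peripheral leukocytes (WBCs) of male Wistar rats, 3 of them normal healthy controls and 4 with collagen-induced arthritis (CIA). Their age is given as 7 weeks for the animals as supplied, before the experiment. CIA is a model of rheumatoid arthritis that is raised by injecting type II collagen in incomplete Freund's adjuvant, here with a boost on day 7. The same 4 CIA rats were bled at about day 8, when their status was Nampt++, and at about day 14, when it was Nampt+, so these 8 samples are 4 pairs from the same animals. Which samples form a pair was read from the CIA number in the deposited descriptions and is not stated in words. The status was assigned by the authors' own PCR of Nampt, and it cannot be told apart from the day of sampling. The day on which the controls were bled is not given in the sources used here. The model is limited by the sample: bulk blood cells after red-cell lysis, with no sorting of lymphocytes.

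NK cells and cytotoxic T cells kill infected or altered cells by releasing granules onto them. Perforin opens a way through the target membrane, granzymes enter and cleave proteins inside, and receptors such as NKG2D and NKp46 tell the cell which targets to engage while the CD94 complex mostly holds it back. The T-box factors T-bet and Eomes, factors of the RUNX family and STAT5 downstream of IL-2 and IL-15 are known regulators of these genes. In blood the same transcripts come from NK cells, from cytotoxic T cells and from other T cell subsets, and in a bulk sample fewer cells of a type and less RNA per cell cannot be told apart.

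Levels are FPKM, fragments per kilobase of transcript scaled to the size of the library, and so can be set side by side between genes. A difference between groups is a log2 fold change from edgeR's quasi-likelihood fit to the counts, given with its standard error (SE). A gene was called where its mean FPKM differed by a ratio over 2 or under 0.5 and the unadjusted p was under 0.05, the thresholds of the study, and the adjusted p was taken over all genes tested. Total counts were 65340027 to 85819418 per library, and the 10 genes had between 175 and 18401 counts in a library, so counting error is a small part of the spread between rats. Haemoglobin (11 genes) made up 6.84% to 42.8% of a library's counts, lowest in Nampt++ rat 1 and highest in Nampt+ rat 2. FPKM is scaled with these counts included, so a high share lowers the FPKM of all other genes in that library. The deposited extraction protocol speaks of retinas, but Ptprc (CD45, found on all leukocytes) was at 122 to 280 FPKM in every library, while 7 retina genes summed to 0.0547 to 1.93 FPKM.

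Gene positions are those of the deposited table, whose genome build is not given in the sources used here. Gzma (chromosome 2, 44968765 to 44981458) and Gzmk (chromosome 2, 45068967 to 45077219) are neighbours on the minus strand with 87508 bases between them. Klrd1 (chromosome 4, 163358009 to 163369854) and Klrk1 (chromosome 4, 163393217 to 163403653) lie 23362 bases apart on opposite strands. Prf1 stood on chromosome 20 (30915213 to 30921382), Gzmm on chromosome 7 (12893432 to 12899004), Nkg7 on chromosome 1 (98492828 to 98493978), Ctsw on chromosome 1 (220844558 to 220848153) and Ncr1 on chromosome 1 (73179013 to 73226777). Gzmb (chromosome 15, 36327721 to 36472346) has 2 transcripts in the table, spans 144626 bases and overlaps 3 other rows, so its reads could be shared with those rows. How shared reads were counted is not given in the sources used here, so its values may be less certain than those of the other 9.

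Promoter sequence was found for 7 of the 10 genes in RefSeq's GRCr8 assembly: Gzmm, Nkg7, Gzmk, Gzma, Klrk1, Gzmb and Prf1. Shown here are the 250 bases before the start of 5 of them. Nkg7 is on the plus strand in that assembly but on the minus strand in the deposited positions. Gzmm, Nkg7 and Gzmk were the 3 genes whose levels moved most closely together over the samples, Klrk1 moved least with the others, and Gzma is the only one of the 10 that was called in a comparison. They lie at chr7:10667257-10667506 (Gzmm, minus strand), chr1:102981247-102981496 (Nkg7, plus strand), chr2:46582016-46582265 (Gzmk, minus strand), chr4:164778383-164778632 (Klrk1, minus strand) and chr2:46485697-46485946 (Gzma, minus strand). Capitals mark the T-box core TCACAC or GTGTGA and the RUNX site TGTGGT or ACCACA, each on either strand, and the last base printed is the one before the start.
Gzmm: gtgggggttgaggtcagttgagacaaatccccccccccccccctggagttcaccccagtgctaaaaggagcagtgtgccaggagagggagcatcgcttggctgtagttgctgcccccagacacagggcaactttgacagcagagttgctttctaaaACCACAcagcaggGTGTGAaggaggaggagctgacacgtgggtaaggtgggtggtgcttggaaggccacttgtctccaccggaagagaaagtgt
Nkg7: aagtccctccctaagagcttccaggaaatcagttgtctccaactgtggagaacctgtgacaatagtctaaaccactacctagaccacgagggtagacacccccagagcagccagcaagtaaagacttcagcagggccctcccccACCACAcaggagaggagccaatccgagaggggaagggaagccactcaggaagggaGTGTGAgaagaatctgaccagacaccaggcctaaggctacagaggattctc
Gzmk: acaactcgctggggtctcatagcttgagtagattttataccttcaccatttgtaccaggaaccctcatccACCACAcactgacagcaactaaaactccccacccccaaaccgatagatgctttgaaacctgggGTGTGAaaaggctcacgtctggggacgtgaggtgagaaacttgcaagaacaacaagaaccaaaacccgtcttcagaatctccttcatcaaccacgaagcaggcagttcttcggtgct
Klrk1: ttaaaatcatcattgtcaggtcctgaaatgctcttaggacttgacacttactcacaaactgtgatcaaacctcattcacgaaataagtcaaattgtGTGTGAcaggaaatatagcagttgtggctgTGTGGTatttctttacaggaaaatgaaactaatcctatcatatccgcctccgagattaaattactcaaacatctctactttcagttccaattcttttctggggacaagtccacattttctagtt
Gzma: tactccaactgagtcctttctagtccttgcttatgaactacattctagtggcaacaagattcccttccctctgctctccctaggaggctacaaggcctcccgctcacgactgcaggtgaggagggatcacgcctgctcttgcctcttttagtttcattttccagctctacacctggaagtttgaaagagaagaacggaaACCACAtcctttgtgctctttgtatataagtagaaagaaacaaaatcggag

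The RUNX letters were in all 7 promoters found and in 14.5% of the 33469 promoters of the same length in the table. The T-box core was in 5 of the 7, against 11.6% of all promoters, and it was missing from this window of Gzma and of Prf1. In Gzmm the T-box core began 81 bases before the start and the RUNX site 94 bases before it. The same pair began at 51 and 106 bases in Nkg7, at 117 and 180 bases in Gzmk, and at 154 and 124 bases in Klrk1. The Gzma promoter printed above holds a single RUNX site, 51 bases before the start, and that of Prf1, which is not printed, holds one at 134 bases. Gzmb, also not printed, had 3 RUNX sites, the farthest 217 bases and the nearest 127 bases before its start. No T-box site overlapped a RUNX site in any of the 7. The STAT motif TTCNNNGAA was in 2 of the 7 promoters (Nkg7 and Gzmb) against 7.67% of all, and the ETS motif AGGAAG or CTTCCT in 2 of the 7 (Nkg7 and Prf1) against 29.5% of all. These matches describe the letters only, and both the tightly linked trio and Klrk1 hold the T-box and RUNX letters.

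Over the 11 samples Gzmm, the granzyme that cuts after methionine and leucine, had the highest mean level at 102 FPKM, and it stood first in 8 libraries. It was followed by Nkg7, a granule membrane protein needed for granule release, at 89.3 FPKM, and by the tryptase Gzmk at 82.7 FPKM. Next came Ctsw, a cysteine protease of NK and CD8 T cells, at 63.4 FPKM and Klrk1, which encodes NKG2D, at 37.9 FPKM. Gzma, a second tryptase, averaged 35.4 FPKM and Prf1, which encodes perforin, 31.6 FPKM. Klrd1, which encodes CD94, averaged 17.3 FPKM, Gzmb, the caspase-cleaving granzyme, 16.4 FPKM, and Ncr1, which encodes NKp46, 3.34 FPKM. Ncr1, the most NK-restricted of the receptors, was last in all 11 libraries. Not all steps in this order stand clear of the spread. Prf1 was above Klrd1 and Gzmb above Ncr1 in 11 of 11 libraries, Gzmm above Nkg7 and Ctsw above Klrk1 in 10, and Nkg7 above Gzmk in 8. Gzmk exceeded Ctsw in only 6, Klrk1 exceeded Gzma in 5, Gzma exceeded Prf1 in 4 and Klrd1 exceeded Gzmb in 5, so these neighbours were not ordered.

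**Figure D1:**
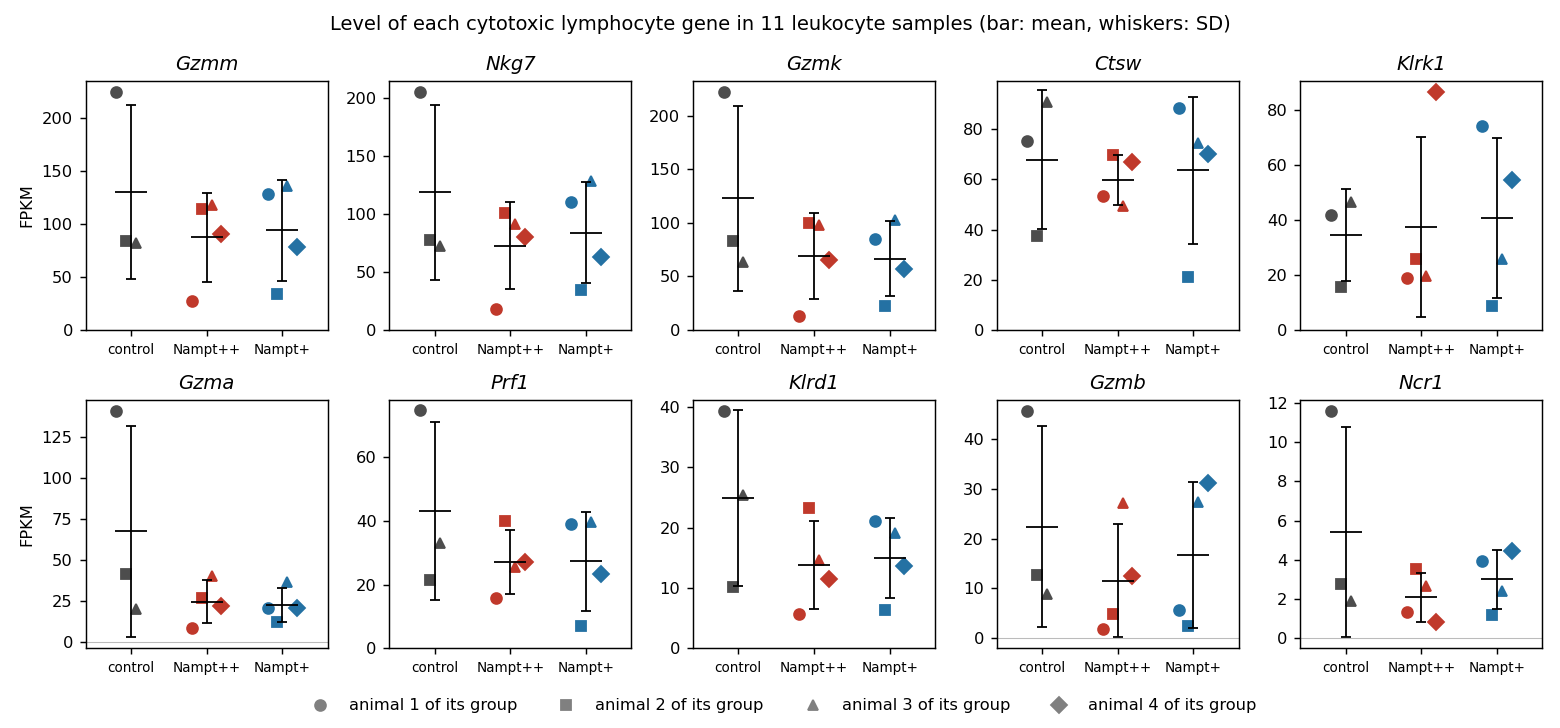
FPKM (y axis, linear, its own scale for each gene) of the 10 genes in 3 control, 4 Nampt++ and 4 Nampt+ samples, ordered by mean level. Symbols number the animals, and equal symbols in the Nampt++ and Nampt+ columns were taken as the same CIA rat by their number. Horizontal bars are group means and whiskers are 1 SD. Control 1 is the highest point for 8 of the 10 genes, and the low points are mostly Nampt++ rat 1 and Nampt+ rat 2.

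The samples of a group differed widely in these genes. The SD of log2(FPKM + 1) within the controls had a median of 0.92 over the 10 genes, against 0.44 over all 11242 genes with a mean of at least 1 FPKM. In Nampt++ samples the medians were 0.95 and 0.32, and in Nampt+ samples 0.92 and 0.50. All genes were not matched to the 10 by level, and adding 1 lowers the SD of genes near 1 FPKM. All 10 genes lay above the median of all genes in controls and in Nampt+ samples, and 9 did in Nampt++ samples, where Ctsw was the exception at 0.24. The highest level of a gene was 4.28 times its lowest for Ctsw, 17.1 times for both Gzmk and Gzma, and 26.3 times for Gzmb.

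A few samples set most of this spread. Summed over the 10 genes the level was 1082, 386 and 445 FPKM in controls 1 to 3. It was 163, 509, 486 and 463 FPKM in Nampt++ rats 1 to 4, and 577, 149, 593 and 416 FPKM in the same rats at Nampt+ status. Control 1 was therefore the highest of the 11, and Nampt++ rat 1 and Nampt+ rat 2 were the lowest, each in a different CIA rat. Haemoglobin took 6.84% of counts in Nampt++ rat 1 and 42.8% in Nampt+ rat 2, the lowest and highest shares. The sums were not corrected for it, so they do not settle which of these 2 samples was lower. Control 1 had the highest level of 8 genes, all but Ctsw, which was highest in control 3, and Klrk1, which was highest in Nampt++ rat 4. Nampt++ rat 1 had the lowest level of 6 genes, Nampt+ rat 2 that of 3 and Nampt++ rat 4 that of Ncr1. Nampt+ rat 2 was among the 2 lowest libraries for all 10 genes, and Nampt++ rat 1 for 7 of them.

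Markers of other blood cells also differed between these libraries. The 9 T cell markers, all of them detected, summed to 468 to 1132 FPKM in controls, 574 to 910 FPKM in Nampt++ samples and 321 to 1019 FPKM in Nampt+ samples. Nampt+ rat 2 had the lowest sum and was among the 2 lowest libraries for all 9 markers, as it was for the 10 cytotoxic genes. Control 2 was among the 2 lowest for 8 of the 9 T cell markers, with a sum of 468 FPKM, but for only 2 of the 10 cytotoxic genes. Nampt++ rat 1 was among the 2 lowest for only 1 of the 9, with a sum of 740 FPKM, so its low level was in the cytotoxic genes and not in these T cell markers. The 8 neutrophil markers, all detected, summed to 40006 FPKM in Nampt++ rat 1, above the other 10 libraries, which lay between 2056 and 15255 FPKM. By group the neutrophil sum ranged from 2056 to 13799 FPKM in controls, from 2859 to 40006 FPKM in Nampt++ samples and from 3628 to 15255 FPKM in Nampt+ samples. The part of these cell types in the levels of the cytotoxic genes was not tested.

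Divided by the T cell sum, the sum of the 10 genes was 1.05, 0.825 and 0.394 in controls 1 to 3. The ratio was 0.220, 0.598, 0.847 and 0.509 in Nampt++ rats 1 to 4 and 0.593, 0.465, 0.582 and 0.430 at Nampt+ status. The groups overlapped on this scale as well. Nampt++ rat 1 remained the lowest, while Nampt+ rat 2 moved up among the other Nampt+ samples.

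**Figure D2:**
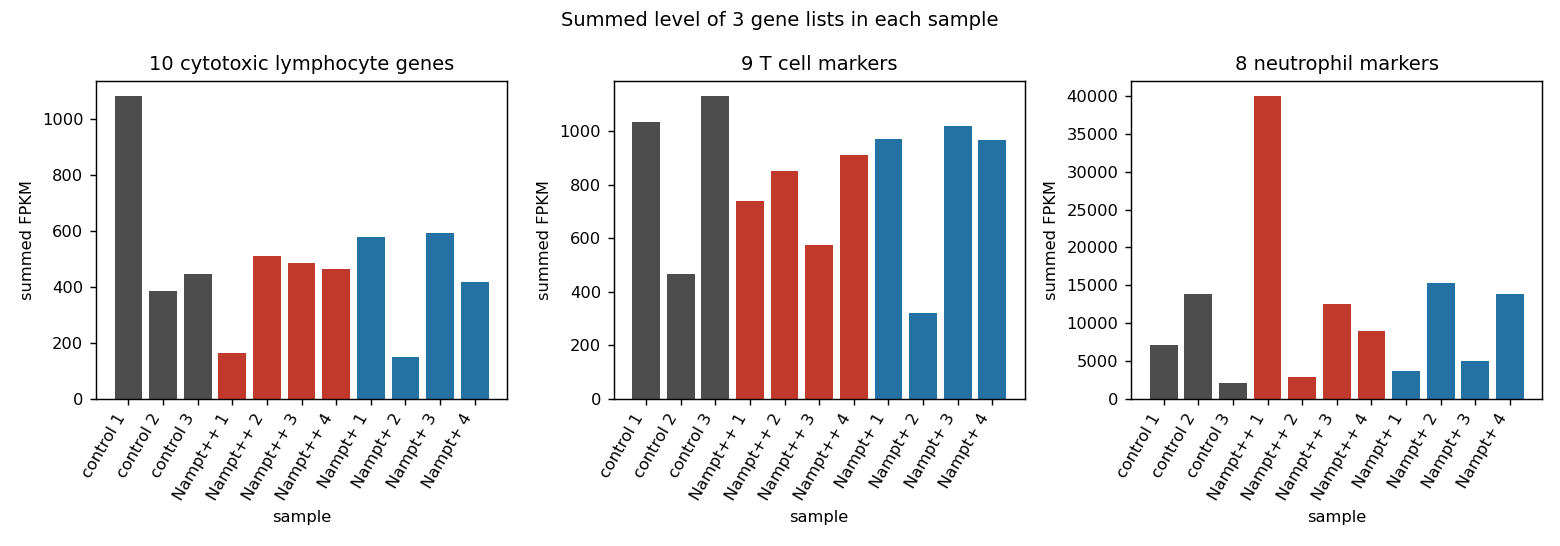
Summed FPKM (y axes, linear, from 0) of the 10 cytotoxic lymphocyte genes, 9 T cell markers and 8 neutrophil markers in each of the 11 samples (x axis), with controls in grey, Nampt++ in red and Nampt+ in blue. The cytotoxic sum is highest in control 1 at 1082 FPKM and lowest in Nampt+ 2 at 149 FPKM, the T cell sum is lowest in Nampt+ 2, and the neutrophil sum is highest in Nampt++ 1 at 40006 FPKM.

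The first comparison asked whether the genes differ between the Nampt++ and Nampt+ stages of CIA. The averages were close. None of the 10 genes was called, where 0.642% of all 11219 genes tested were, and none had groups free of overlap, where 0.41% of all genes did. The log2 fold changes (Nampt+ over Nampt++) ran from -0.16 for Gzma to 0.42 for Ncr1 with a median of 0.04, beside -0.00 over all genes. The lowest unadjusted p was 0.441 in edgeR's quasi-likelihood test, and no gene of the whole table had an adjusted p under 0.05, although 2.28% of them had an unadjusted p under 0.05 and DESeq2 gave 5 genes an adjusted p under 0.05, none of them among the 10. These intervals are wide, and the median SE was 0.49 for the 10 genes against 0.26 for all genes. The fit behind them treats the 8 samples as independent and does not use the pairing by rat.

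Among the granule genes, Prf1 was at 15.7, 40.1, 25.5 and 27.2 FPKM in rats 1 to 4 at Nampt++ status. At Nampt+ status the same rats had 39.1, 7.12, 39.8 and 23.4 FPKM. The means were 27.1 ± 10.04 (SD, n = 4) and 27.3 ± 15.5 FPKM (SD, n = 4), with rat 2 going from the highest of its group to the lowest. The log2 fold change of Prf1 was -0.09 with a 95% interval of -1.04 to 0.86. Gzmm, the most abundant of the 10, was at 26.9, 115, 118 and 90.4 FPKM in rats 1 to 4 at Nampt++ status. It was at 129, 33.6, 136 and 78.4 FPKM at Nampt+ status. Rat 1 was the low animal first and rat 2 later, and the log2 fold change of Gzmm was 0.03 (95% interval -1.05 to 1.11). Ctsw was the steadiest of the 10 at Nampt++ status, with 53.5, 69.9, 49.3 and 66.9 FPKM in rats 1 to 4. At Nampt+ status it was at 88.6, 21.3, 74.7 and 70.0 FPKM, where rat 2 alone was far below the rest. Its log2 fold change was 0.04 (95% interval -0.56 to 0.64), the narrowest interval of the 10 in this comparison.

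Gzmb had 1.74, 4.85, 27.2 and 12.4 FPKM in rats 1 to 4 at Nampt++ status. At Nampt+ status it had 5.61, 2.50, 27.4 and 31.2 FPKM. Rat 3 was high at both stages and rats 1 and 2 were low at both. The log2 fold change of 0.38 had a 95% interval from -1.57 to 2.34 in the main fit, which does not pair the rats. With the rat as a replicate block it was 0.60, with an unadjusted p of 0.214 in edgeR's quasi-likelihood test. The relatives Gzmbl2 and Gzmbl3, whose reads may be shared with it, were as variable, with Gzmbl2 between 2.03 and 27.4 FPKM and Gzmbl3 between 0.721 and 23.8 FPKM over the 11 libraries.

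The receptors overlapped between the stages in the same way. Klrk1 was at 18.7, 25.6, 19.5 and 86.4 FPKM in rats 1 to 4 at Nampt++ status. It was at 74.0, 8.71, 25.7 and 54.7 FPKM at Nampt+ status, with rat 4 high at both stages. Its log2 fold change was 0.13 with a 95% interval of -1.20 to 1.47. Ncr1 was at 1.35, 3.56, 2.65 and 0.83 FPKM at Nampt++ status and at 3.95, 1.18, 2.43 and 4.45 FPKM at Nampt+ status. Rats 1 and 4 were the low animals first and the high ones later, and the log2 fold change of Ncr1 was 0.42 (95% interval -0.75 to 1.58). Klrd1 ranged from 5.78 to 23.3 FPKM at Nampt++ status and from 6.29 to 21.1 FPKM at Nampt+ status, with a log2 fold change of 0.05 (95% interval -0.96 to 1.05).

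In rats 1 and 2 the genes shifted together, and in opposite directions. In rat 1 all 10 genes were higher at Nampt+ than at Nampt++ status, by 0.73 to 2.71 on the log2 scale with a median of 1.78. In rat 2 all 10 were lower, by a median log2 ratio of -1.65 (range -2.50 to -0.96). The extremes in both rats were granule genes. Gzmk went from 12.9 to 85.0 FPKM in rat 1, a ratio of 6.56, and Prf1 from 40.1 to 7.12 FPKM in rat 2, a ratio of 0.177. The sum of the 9 T cell markers also fell in rat 2, from 852 to 321 FPKM, while in rat 1 it rose from 740 to 972 FPKM. The part of T cell content in these shifts was not tested. In rats 3 and 4 the 10 genes went in both directions, with medians of 0.30 and -0.16. There 8 genes were higher and 2 lower in rat 3, and 4 were higher and 6 lower in rat 4, where Ncr1 was at 2.43, Gzmb at 1.33 and Klrk1 at -0.66. The means therefore average higher levels in 1 rat with lower levels in another, and each of these shifts rests on one of the low libraries named above. Without Nampt++ rat 1 the median log2 fold change of the 10 was -0.21 with 8 of them below 0. Without Nampt+ rat 2 it was 0.20 with 9 of them above 0, and in neither case was any of the 10 called. Of all genes 0.92% and 1.45% were called in these fits.

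**Figure D3:**
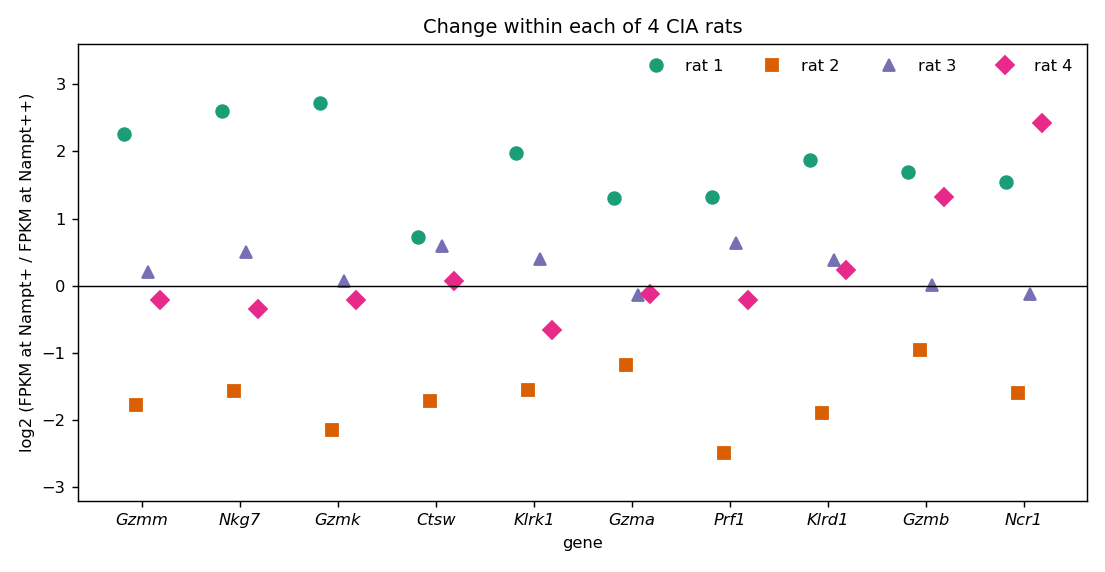
Log2 ratio of FPKM at Nampt+ over Nampt++ status (y axis) for each of the 10 genes (x axis, ordered by mean level) in each of the 4 CIA rats (symbols); the line marks no change. All 10 points of rat 1 lie above the line, between 0.73 and 2.71, and all 10 of rat 2 below it, between -2.50 and -0.96.

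The other comparisons set each stage of CIA against the 3 normal healthy controls, and both use the same control samples. In Nampt++ samples 9 of the 10 genes had a log2 fold change below 0, with a median of -0.74 beside 0.00 over all genes. None was called, where 0.686% of 11219 genes were, and none had groups free of overlap, where 1.1% of all genes did. In Nampt+ samples 9 of the 10 were again below 0, with a median of -0.69 beside -0.00 over all genes. There Gzma was called as lower and no other of the 10 was, where 0.497% of 11269 genes were called and 0.284% were called as lower. No gene's groups were free of overlap among the 10, against 0.444% of all genes. No adjusted p was under 0.05 in edgeR's quasi-likelihood test for any gene of the table in either comparison, while 1.57% and 0.87% of genes had an unadjusted p under 0.05. DESeq2 gave 5 and 4 genes an adjusted p under 0.05, none among the 10, and it called Gzma as lower in both comparisons.

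Gzma had 141, 41.2 and 20.1 FPKM in controls 1 to 3. It had 8.24, 27.0, 40.3 and 22.0 FPKM in rats 1 to 4 at Nampt++ status. At Nampt+ status it had 20.4, 11.9, 36.7 and 20.3 FPKM. Control 1 was far above every other sample, control 2 was level with the highest CIA sample, and control 3 lay among them. The means were 67.5 ± 64.7 (SD, n = 3) in controls, 24.4 ± 13.2 (SD, n = 4) in Nampt++ and 22.3 ± 10.4 FPKM (SD, n = 4) in Nampt+ samples. For Nampt+ samples the ratio of means was 0.331 and the log2 fold change -1.68 ± 0.61 (SE), with an unadjusted p of 0.0255 and an adjusted p of 1.00 in edgeR's quasi-likelihood test. For Nampt++ samples the log2 fold change was -1.51 ± 0.75 (SE), with an unadjusted p of 0.0806 in the same test, so it was not called. Without control 1 the Nampt+ difference was -0.65 and was no longer called. It was also not called without Nampt+ rat 1, 2 or 4, at -1.62, -1.65 and -1.58.

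Gzmk had 222, 82.8 and 63.4 FPKM in controls 1 to 3. It had 12.9, 99.4, 97.5 and 65.4 FPKM in rats 1 to 4 at Nampt++ status and 85.0, 22.5, 102 and 56.8 FPKM at Nampt+ status. Only control 1 stood above all CIA samples. The log2 fold changes of Gzmk against controls were -0.84 ± 0.74 (SE) at Nampt++ and -0.999 ± 0.49 (SE) at Nampt+ status. Nkg7 had 205, 77.8 and 72.5 FPKM in controls 1 to 3. It had 18.1, 101, 91.2 and 80.0 FPKM in rats 1 to 4 at Nampt++ status and 110, 34.2, 129 and 62.8 FPKM at Nampt+ status. Nkg7 thus repeated the pattern of Gzmk, with control 1 highest and the other controls inside the range of the CIA samples. Its log2 fold changes were -0.72 ± 0.64 (SE) and -0.58 ± 0.45 (SE). Gzmm, at 225, 83.9 and 82.5 FPKM in controls 1 to 3, had log2 fold changes of -0.59 ± 0.60 (SE) and -0.56 ± 0.45 (SE).

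Prf1 had 74.7, 21.5 and 33.1 FPKM in controls 1 to 3, and log2 fold changes of -0.64 ± 0.49 (SE) at Nampt++ and -0.75 ± 0.49 (SE) at Nampt+ status. Gzmb had 45.7, 12.8 and 8.84 FPKM in the controls, with log2 fold changes of -1.01 ± 0.92 (SE) and -0.64 ± 0.80 (SE). In both genes control 1 was the highest of the 11 samples and the other controls lay among the CIA samples. Ctsw differed from the other granule genes. It had 75.3, 37.3 and 91.1 FPKM in controls 1 to 3, so control 1 was not its highest sample, and its log2 fold changes were -0.13 ± 0.25 (SE) and -0.11 ± 0.30 (SE).

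Of the receptors, Klrd1 had 39.3, 10.2 and 25.4 FPKM in controls 1 to 3, with log2 fold changes of -0.76 ± 0.56 (SE) at Nampt++ and -0.73 ± 0.38 (SE) at Nampt+ status. Ncr1 had 11.6, 2.77 and 1.91 FPKM in the controls, with log2 fold changes of -1.35 ± 0.77 (SE) and -0.94 ± 0.62 (SE). Klrk1 was the only one of the 10 with a log2 fold change above 0 in both comparisons, at 0.10 ± 0.53 (SE) and 0.22 ± 0.53 (SE), and it turned to values below 0 in both fits on log2 FPKM and in the fit with a replicate block. Its levels in controls 1 to 3 were 41.8, 15.6 and 46.5 FPKM. All these genes overlapped between groups.

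The distance from controls rested largely on 1 animal. Without control 1 the median log2 fold change of the 10 genes was -0.06 in Nampt++ samples, with 7 of the 10 below 0, and 0.02 in Nampt+ samples, with 4 of the 10 below 0. None was then called in either comparison, where 0.474% and 0.587% of all genes were. Leaving out another library could add calls. Without control 3, Gzma at -1.98 and Ncr1 at -1.80 were called in Nampt++ samples, where 1.27% of all genes were. In Nampt+ samples Gzma at -2.15, Gzmk at -1.38 and Ncr1 at -1.39 were then called, where 1.00% of all genes were. Without control 2 Klrd1 was called in Nampt+ samples beside Gzma, at -1.02 and -1.84, where 1.20% of all genes were. Without Nampt++ rat 2 Klrd1 was called in Nampt++ samples at -1.26, where 1.63% of all genes were.

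**Figure D4:**
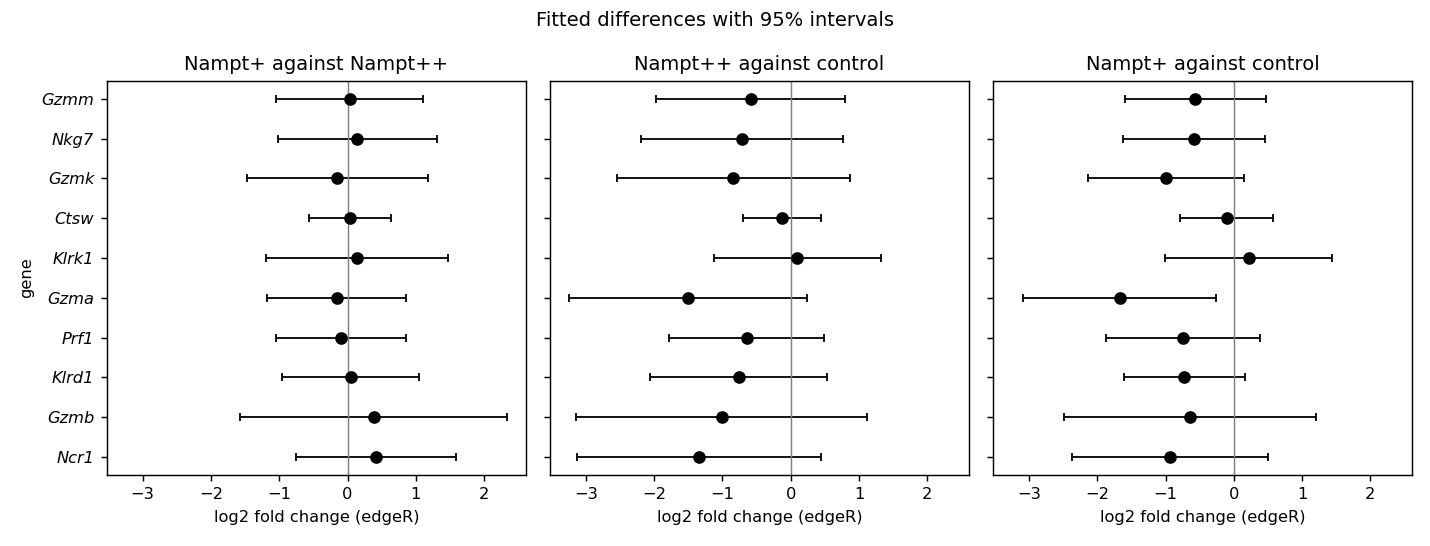
Log2 fold change (x axis) from edgeR's quasi-likelihood fit with its 95% interval (whiskers) for the 10 genes (y axis, ordered by mean level) in the 3 comparisons; the right panels share the control samples. In the left panel all intervals include 0, and in the right panels 9 of 10 points lie below 0 while only that of Gzma in Nampt+ samples, at -1.68, has an interval that leaves 0 out.

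The 10 genes did not all vary in the same way. Over the 45 pairs, Pearson's r of log2(FPKM + 1) over the 11 libraries had a median of 0.725 and ranged from 0.153 (Gzma with Klrk1) to 0.987 (Gzmm with Nkg7). These are descriptions, since the 11 libraries come from 7 rats and share the differences in cell makeup described above. The trio of Gzmm, Nkg7 and Gzmk varied less in its proportions than in its levels. Gzmm stood at 0.985 to 1.48 times the level of Nkg7 and at 1.01 to 2.08 times that of Gzmk in every library, although each of the 3 varied over 8.39-fold or more. Prf1 and Klrd1 went with this trio, with r to its genes of 0.845 to 0.894 for Prf1 and 0.861 to 0.887 for Klrd1. To the mean of the other 9 genes their r was 0.911 and 0.889. Gzma (0.821), Gzmb (0.726) and Ncr1 (0.721) followed more loosely. The ratio of Gzmb to Gzmm ran from 0.0423 in Nampt++ rat 2 to 0.397 in Nampt+ rat 4, a 9.38-fold range, and that of Gzma to Gzmm was highest in controls 1 and 2, at 0.626 and 0.491.

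Klrk1 and Ctsw had the lowest r to the other 9 genes, 0.474 and 0.627. Their r with each other was 0.817, and that of Ctsw with Prf1 was 0.822. By Spearman's rho Klrk1 was again the lowest at 0.291, while Ctsw at 0.618 was above Gzma and Ncr1, both at 0.527, and Gzmb at 0.473. The ratio of Klrk1 to Gzmm ran from 0.165 in Nampt++ rat 3 to 0.956 in Nampt++ rat 4. The ratio of Klrk1 to Klrd1, its neighbour on chromosome 4, ran from 1.06 in control 1 to 7.48 in Nampt++ rat 4. Without Nampt+ rat 2 and Nampt++ rat 1, the libraries farthest from the median of the mean level, the median r of the 45 pairs was 0.623, and 8 pairs were below 0, the lowest at -0.36. Gzmm and Nkg7 then still had an r of 0.984 over 9 libraries. The r to the other 9 genes was then -0.07 for Klrk1, 0.281 for Ctsw and 0.337 for Gzmb, so the likeness of these 3 to the rest depended on those libraries. For Klrd1 and Gzma it was lower as well, at 0.731 and 0.717.

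**Figure D5:**
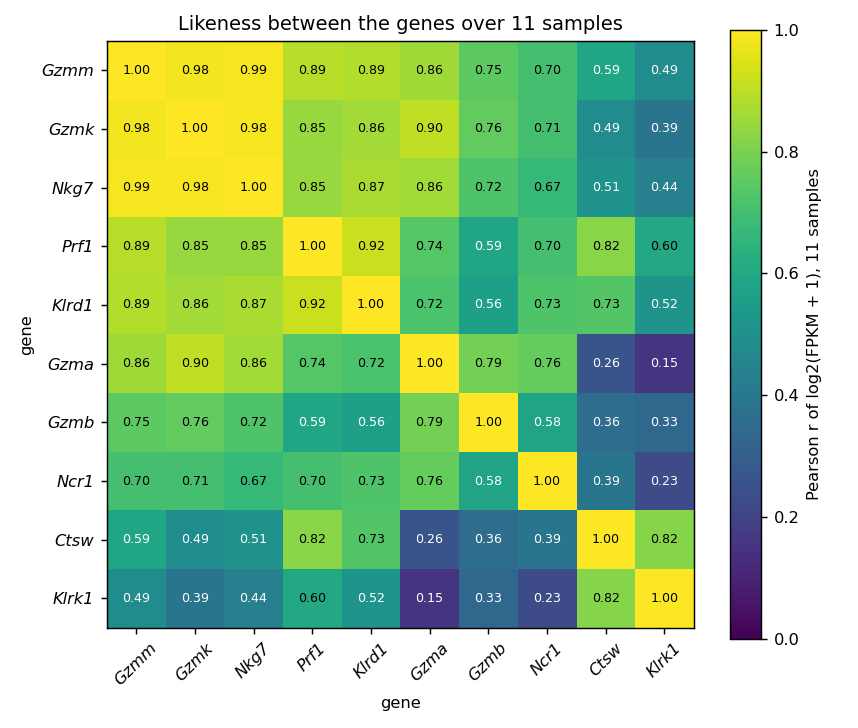
Pearson's r of log2(FPKM + 1) over 11 samples for each pair of the 10 genes (both axes, ordered by r to the mean of the other 9), from 0 (dark) to 1 (light). Gzmm, Gzmk and Nkg7 form the lightest block, and the pairs of Klrk1 and Ctsw with Gzma, Gzmb and Ncr1 are the darkest.

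Of the other 11232 genes with a mean of at least 1 FPKM, those most like the mean of the 10 over the samples were Nxt2 (r = 0.960), Il2rb (0.954), Eomes (0.953), Adamts14 (0.950) and Klri1 (0.950). Il2rb encodes the receptor chain shared by IL-2 and IL-15, Eomes is a T-box factor, and Klri1 is a lectin-like NK receptor. Il2rb, at 10.5 to 71.1 FPKM, was highest in control 1 and lowest in Nampt+ rat 2, as the sum of the 10 genes was. Spearman's rho was 0.745 for Nxt2, 0.982 for Il2rb, 0.836 for Eomes, 0.927 for Adamts14 and 0.891 for Klri1, and without the same 2 libraries r was 0.942, 0.897, 0.919, 0.916 and 0.942. Adamts14 lies beside Prf1 on chromosome 20, from 30812353 to 30888751 on the opposite strand, with 26461 bases between them. The likeness covers all 11 libraries and says nothing of the groups.

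Other genes of killing and its control were read from lists of 82 genes, of which 77 were in the table. In Nampt+ against Nampt++ samples none of the 64 tested was called, where 0.642% of all genes were, and in Nampt++ samples against controls none of 66, where 0.686% of all genes were. In Nampt+ samples against controls 2 of 66 were called, both lower, where 0.497% of all genes were called and 0.284% as lower. These were the NK receptors Klrc3 and Klri2. Klrc3 averaged 1.80 FPKM in controls and 0.716 FPKM in Nampt+ samples. It reached the mean of 1 FPKM needed for testing only through the controls, so its call as lower is not independent of that filter. Between the stages it fell under that level and was not tested. Klrc3 had 3.25, 0.953 and 1.21 FPKM in controls 1 to 3 and 0.882, 0.373, 1.01 and 0.596 FPKM in Nampt+ rats 1 to 4, a log2 fold change of -1.35 ± 0.45 (SE), an unadjusted p of 0.0171 and an adjusted p of 1.00 in edgeR's quasi-likelihood test. Klri2 had 7.19, 2.60 and 1.57 FPKM in controls and 0.297, 0.489, 2.74 and 0.507 FPKM in Nampt+ samples, a log2 fold change of -2.01 ± 0.80 (SE), an unadjusted p of 0.0371 and an adjusted p of 1.00 in the same test. Both overlapped with the controls through Nampt+ rat 3. Klri2 was not called without control 1 (-1.24), without control 2 (-2.11) or without Nampt+ rat 1, 2 or 4 (-1.71, -1.97 and -1.76).

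Of the secreted and surface effectors 6 genes were tested. They had median log2 fold changes of -0.16 between the stages, -0.83 in Nampt++ samples against controls and -0.64 in Nampt+ samples against controls, where the 10 cytotoxic genes had 0.04, -0.74 and -0.69. Ccl5, a chemokine stored by cytotoxic T and NK cells, ranged from 86.5 to 1076 FPKM and had an r of 0.914 to the mean of the 10 genes. Ccl3, which monocytes also make, ranged from 329 to 2141 FPKM and had an r of -0.205. Other NK receptors (13 to 15 tested) had medians of -0.34, -0.37 and -0.29 in the same order. Among them Fcgr3a was at 3.63 to 44.2 FPKM, with an r of 0.858 to the mean of the 10 genes. Klrb1a, at 7.03 to 39.0 FPKM, had an r of -0.395 and was highest in Nampt++ rat 1. Over these receptors r ran from -0.571 for Ncr3 to 0.950 for Klri1. Transcription factors and egress receptors (11 tested, with Ets1 at 65.1 to 223 and Id2 at 64.4 to 177 FPKM) had medians of -0.16, -0.02 and -0.20.

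The 13 receptor adaptors and signalling genes, led by Tyrobp at 382 to 1801 and Fcer1g at 413 to 1468 FPKM, had medians of -0.02, -0.05 and -0.06. The 7 granule release genes, led by Vamp8 at 75.7 to 162 and Stxbp2 at 25.7 to 90.2 FPKM, had medians of -0.12, 0.09 and 0.06. The 7 other granule proteins and protease inhibitors tested, led by Srgn at 247 to 1122 and Lamp1 at 52.5 to 122 FPKM, had medians of 0.21, 0.07 and 0.04. The 7 or 8 cytokine receptors tested, led by Il21r at 49.1 to 142 and Il2rg at 39.4 to 109 FPKM, had medians of 0.23, -0.24 and -0.03. Klrc3 and Klri2 were thus the only genes of these lists that were called. Tyrobp, Fcer1g and Srgn are also made by myeloid cells, and their r to the mean of the 10 genes was -0.555, -0.596 and -0.570.

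The marker lists of other cells gave few calls. None of 9 T cell, 5 B cell, 6 neutrophil, 5 monocyte, 4 erythroid or 1 pan-leukocyte genes tested was called in any comparison, and no retina gene reached the level for testing. Median log2 fold changes in Nampt++ and in Nampt+ samples against controls were 0.83 and 0.42 for neutrophil genes, 0.45 and -0.05 for monocyte genes, -0.17 and -0.04 for T cell genes and -0.43 and -0.21 for B cell genes. Of 4 platelet genes, with medians of 0.22 and 0.24, Ppbp alone was called, as lower in Nampt++ samples than in controls at -1.09, while the other 3 had log2 fold changes above 0. Of the basophil and mast cell genes, Mcpt8l2 was called as lower there at -1.20, and Mcpt8l2, Mcpt8l3 and Ms4a2 were called as higher in Nampt+ than in Nampt++ samples, at 1.31, 1.41 and 1.94, where 0.642% of all genes were called. The adjusted p was 1.00 for each of these 5 calls in edgeR's quasi-likelihood test. Between the stages Mcpt8l2 was no longer called without Nampt+ rat 4 (0.68) or Nampt++ rat 1 or 4 (1.15 and 1.14), and Mcpt8l3 without Nampt+ rat 4 (0.77) or Nampt++ rat 2 or 4 (1.31 and 1.20). With the rat as a replicate block neither was called, at 1.12 and 1.19. Ms4a2 was at 5.12 FPKM in Nampt+ rat 4 and at most 2.64 FPKM in the other samples. Without that rat's Nampt+ sample its mean fell under 1 FPKM, so it was not tested. Against controls Ppbp and Mcpt8l2 each lost their call when any of several single libraries was left out, with values from -1.11 to -0.83 for Ppbp (without control 2 or 3 or Nampt++ rat 1, 3 or 4) and from -1.28 to -0.65 for Mcpt8l2 (without control 1 or 2 or Nampt++ rat 1, 2 or 4). The Mcpt8-like proteases belong to the same protease family as the granzymes, but they mark basophils and not lymphocytes.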

How the data were processed

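Poly(A) RNA of peripheral leukocytes was sequenced in paired-end reads from 3 control rats and, at both stages, from 4 CIA rats. The submitters' processing notes name cutadapt 1.9, HISAT2 2.0.4 and StringTie 1.3.4, while the genome build and the way reads were counted, strand and shared reads included, are not given in the sources used here. The deposited counts are whole numbers of reads per gene without normalization, and the FPKM values are the authors' own, scaled by gene length and sample total, with 0.0001 standing for 0. Both columns of all 11 samples were used, and no row was without a gene. Groups were compared in pairs with edgeR 4.0.16 (R 4.3.3), its quasi-likelihood test and TMM scaling, leaving out genes whose FPKM averaged under 1 in the samples compared. SE is the log2 fold change divided by the root of F, and p values were adjusted by the Benjamini-Hochberg method over all genes tested. The test was tried on simulated counts drawn over all genes. In the order of the comparisons above, it called 46.0%, 47.0% and 36.0% of genes changed by 1 on the log2 scale, where the fold threshold lies. Of genes changed by 2 it called 97.0%, 93.0% and 99.0%, and of unchanged genes 1.67%, 2.305% and 2.114%. The 10 genes had a larger SE than most genes, so these shares do not hold for them.

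The members and gene lists were chosen with earlier results of these data known. Named in the text are all 10 members, of every list the 2 genes with the highest mean FPKM and those called, and the 5 genes most like the members' mean log2(FPKM + 1). Gzmbl2 and Gzmbl3, the values of Il2rb and the r values of Tyrobp, Fcer1g and Srgn were added after their values were seen. So were Ncr3 and the r values of the other NK receptors. On the marker lists the genes with the highest mean are not named, apart from Ptprc. Serpinb6, Lyst, Snap23, Klrb1b, Klrc2, Cd79a and Mcpt8 had no row of that name and were not analysed here. Promoters were taken from RefSeq (GRCr8), matched by symbol.

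Samples of equal number at Nampt++ and Nampt+ status were taken as the same rat, because the deposited descriptions give both the same CIA number. The paper says that both stages were sampled in the same rats but does not give the match of samples. Over 11219 genes the deviations of a pair from its group means correlated at -0.27, -0.24, 0.24 and 0.08 in rats 1, 2, 3 and 4. These values do not settle the match. The rat was a replicate block in an alternative fit, which called none of the members between the stages. Controls share only numbers with CIA rats. Alternatives were RLE and upper quartile scaling, DESeq2 1.42.0, no FPKM filter or a mean of at least 10, haemoglobin genes left out, limma 3.58.1 on log2(FPKM + 1) or log2(FPKM + 0.1), a single fit of all groups, the replicate block and leaving out each sample. The fold taken from the fit was added after seeing the data.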

Additional observations from a re-analysis of the deposited data

Results flagged for a closer look

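Of 20 groups of 4 samples examined on log2(FPKM + 1), 1 for each of the 10 genes in each CIA group, 2 held a sample far from the others by Dixon's criterion, and chance alone marks about 1 group in 20. Ctsw in Nampt+ rat 2 stood at 21.3 FPKM, where the other 3 rats lay between 70.0 and 88.6 FPKM, and its gap took 0.833 of the group's range on the log2 scale and 0.723 on the FPKM scale. Nkg7 in Nampt++ rat 1 stood at 18.1 FPKM, where the others lay between 80.0 and 101 FPKM, and its gap took 0.862 of the range on the log2 scale and 0.746 on the FPKM scale. On the FPKM scale neither gap passes the criterion. These are the libraries in which most of the 10 genes were low, and the values without them are given with the comparison of the stages.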

How the results depend on the processing

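Between the stages none of the 10 genes was called under any alternative, while the signs of single genes often turned. With limma on log2(FPKM + 1) and on log2(FPKM + 0.1), Gzmk was at 0.10 and 0.11 and Ctsw at -0.076 and -0.081, and with the rat as a replicate block Gzma was at 0.042 and Gzmk at 0.10. Against controls Klrk1 turned to -0.052 and -0.055 at Nampt++ and to -0.0016 and -0.013 at Nampt+ status with the same limma fits, and to -0.54 and -0.15 with the replicate block. When single samples were left out, log2 fold changes between the stages ranged from -0.32 to 0.27 for Prf1, -0.47 to 0.20 for Gzma, -0.080 to 1.33 for Gzmb, -0.51 to 0.18 for Gzmk, -0.29 to 0.28 for Gzmm, -0.15 to 0.22 for Ctsw, -0.19 to 0.45 for Nkg7, -0.23 to 0.54 for Klrd1 and -0.32 to 0.77 for Klrk1. At Nampt++ status against controls they ranged from -1.01 to 0.038 for Prf1, -0.92 to 0.041 for Gzmm and -0.56 to 0.32 for Klrk1. At Nampt+ status against controls they ranged from -1.08 to 0.33 for Gzmb, -0.89 to 0.052 for Gzmm, -0.31 to 0.071 for Ctsw, -0.91 to 0.038 for Nkg7, -0.26 to 0.48 for Klrk1 and -1.39 to 0.19 for Ncr1. In Nampt++ samples against controls DESeq2 and the fit of all 3 groups each called 1 of the 10 (Gzma), and leaving out samples gave 0 to 2. In Nampt+ samples 0 were called with limma on log2(FPKM + 0.1) and with the replicate block, which here joins only shared numbers, and leaving out samples gave 0 to 3. The share of all genes called between the stages was 1.52% with no FPKM filter, 0.386% at a mean of at least 10, and 0.521% to 1.45% with a sample left out. In Nampt++ samples against controls it was 1.08% with DESeq2, 1.59% with no filter, 1.29% and 1.25% with the limma fits, 0.41% with the replicate block and 0.474% to 4.09% with a sample left out, the last without control 2. In Nampt+ samples against controls it was 1.35% with no filter, 0.285% at a mean of at least 10 and 0.438% to 1.2% with a sample left out. The cause of these shifts was not tested. With a mean of at least 10, Ncr1 was not tested. No adjusted p of the 10 was under 0.05 in any setting.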
